A study of Physcomitrium patens with 8 samples.

Results

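The response of the atg5 line of the moss Physcomitrium patens to abscisic acid was read from the atg5 channels of 4 of the 8 arrays of the series. These are 4 of its 16 channels, 2 in the state named Hydration and 2 in the state named ABA. The arrays are 2-colour oligonucleotide arrays on which WT and atg5 RNA of the same state were hybridised together. Hydration means protonemal colonies, the filamentous stage of the moss, grown for 7 days at 25 °C under continuous light on a rich medium with ammonium tartrate and glucose. ABA means colonies of that age then moved to fresh agar medium with 50 µM cis-trans abscisic acid for 24 h under light. In both states of the comparison the autophagy related gene 5 is knocked out by the labels, which name 1 knockout line. Autophagy itself was not measured here. The ABA colonies were also 24 h older and had been moved to fresh medium, so these changes and the hormone cannot be told apart. The atg5 RNA carried Cy5 in replicate 1 and Cy3 in replicate 2, so each replicate compares the same dye, and its WT partner carried the other dye. The labels call the replicates biological without naming the cultures behind them, so p-values measure only the spread between samples of this series. That spread is estimated over all 16 channels, with WT and the other states of the series included.

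Abscisic acid is the hormone of water stress in land plants. It is bound by soluble receptors that then hold back protein phosphatases, which frees protein kinases to activate transcription factors of ABA-responsive genes. In moss protonemata, treatment with the hormone slows growth, induces protective proteins and sugars and lets the cells survive drying. Autophagy carries cell material to the vacuole for breakdown and reuse. ATG5 is part of the protein complex that attaches the small protein ATG8 to the membranes of forming autophagosomes, and without it these vesicles do not form normally.

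The array identifiers are not paired with gene names in the files, and 0 of them occur in the reference table of 27567 genes, so transcripts are given by identifier and without a function. The transcript of the knocked-out gene could therefore not be looked up, and neither could marker genes of protonema. Of the 38181 gene probes on each array, 39.3 to 44.7% were well above background in atg5 in Hydration and 37.0 to 42.2% on ABA. No gene spot of these channels was saturated (0 on each array). The control RNA spiked into the labelling gave a median signal of 186 in Hydration and 112 on ABA in replicate 1, and 54.0 and 52.8 in replicate 2.

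ABA changed 4227 of the 19143 probes tested in the atg5 line (22.1%), with 1878 higher (9.81%) and 2349 lower (12.3%). A probe counts as changed at a Benjamini-Hochberg adjusted p under 0.05 in limma's separate-channel fit, with n = 2 arrays per state. The changed probes stand for 3540 of 15119 loci, 1593 with a probe that rose and 1949 with a probe that fell. On this scale the rises reached further than the falls. At least 2-fold, 958 probes rose and 958 fell (10% of those tested, 5% in each direction). At least 4-fold there were 343 rises and 200 falls, at least 8-fold 174 and 48, and at least 16-fold 81 and 8. From 32-fold on there were 47 rises and 0 falls, and 24 rises were at least 64-fold. The median log2 change was 1.01 among the probes that rose and -0.88 among those that fell, against -0.03 over all probes tested. In WT on the same arrays 3810 probes changed (19.9%), 1578 of them higher (8.24%) and 2232 lower (11.7%). Of these 1657 changed at least 2-fold (8.66%), 794 higher (4.15%) and 863 lower (4.51%), and the WT rises and falls of at least 8-fold numbered 112 and 31. Whether the atg5 and WT counts differ was not tested.

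**Figure D1:**
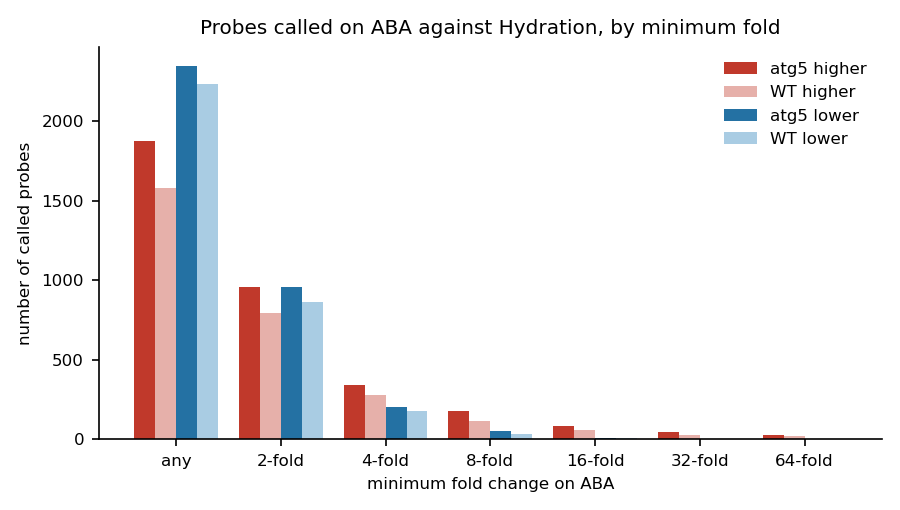
Number of probes called on ABA against Hydration (vertical axis) at each minimum fold change (horizontal axis), for rises and falls in atg5 and in WT. In atg5 the falls outnumber the rises without a minimum fold (2349 against 1878), the counts are equal at 2-fold (958 each), and at 8-fold rises lead with 174 against 48.

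The balance of rises and falls rests on how the channels were put on one scale. Here they were scaled so that the arrays share a distribution of mean intensities (Aquantile), and 44.4% of the changed probes rose. Without scaling between arrays the median of all probes shifted to -0.31 on the log2 scale, and 1385 probes rose against 5905 that fell. With scaling to the spiked-in control RNA, and with replicate and dye as terms, the median shifted to 0.21, and 1235 rose against 475. With median centring in place of loess and the same terms 1510 rose against 876. Rises and falls are therefore relative to the other probes of the array.

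Changes were called more often among bright probes. The tested probes were put into 4 equal bins by mean level over all 16 channels. In the dimmest bin 2.07% rose and 6.04% fell, and in the brightest 19.0% rose and 19.3% fell. Changes of at least 2-fold numbered 6 rises and 47 falls in the dimmest bin and 585 and 449 in the brightest. The mean level includes the Hydration and ABA channels that make the call. A strong rise can thus lift a probe out of the dimmest bin, so the bins are not independent of the change.

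The largest changes among probes well above background on all 4 atg5 arrays began with Pp1s149_4V6.1. Its normalized log2 intensity was 9.36 and 9.55 in Hydration and 16.52 and 16.46 on ABA, replicate 1 first here and below. All values on ABA were thus far above those in Hydration, and the probe rose 131-fold (log2 change 7.04 ± 0.379 SE, n = 2, limma adjusted p = 2.54e-07). In atg5 colonies dried for 24 h over silica gel (Dehydration) it stood at 16.53 and 16.43, and after a further 24 h back on medium (Rehydration) at 16.31 and 16.98.

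Pp1s147_26V6.1 read 8.94 and 8.85 in Hydration and 15.48 and 15.51 on ABA. The replicates lay close together in each state, and the probe rose 97.4-fold (6.61 ± 0.322, adjusted p = 1.14e-07). It was at 16.33 and 15.98 in Dehydration and at 14.31 and 14.81 in Rehydration.

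Among the falls, Pp1s346_19V6.1 went from 11.99 and 12.03 in Hydration to 7.09 and 7.83 on ABA. The states do not overlap, although the ABA replicates lie apart, and the probe fell 23.4-fold (-4.55 ± 0.417, adjusted p = 1.51e-05). In Rehydration it was well above background on 1 of 2 atg5 arrays, at 6.64 and 7.96. Pp1s97_59V6.1 read 14.05 and 14.58 in Hydration and 10.06 and 10.11 on ABA, an 18.7-fold fall (-4.22 ± 0.249, adjusted p = 4.83e-07). A second probe of its locus, Pp1s97_59V6.2, fell too, by 3.34 on the log2 scale (SE 0.549, adjusted p = 0.00112). The level of Pp1s97_59V6.1 lay between these states in Rehydration, at 12.51 and 12.80.

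**Figure D2:**
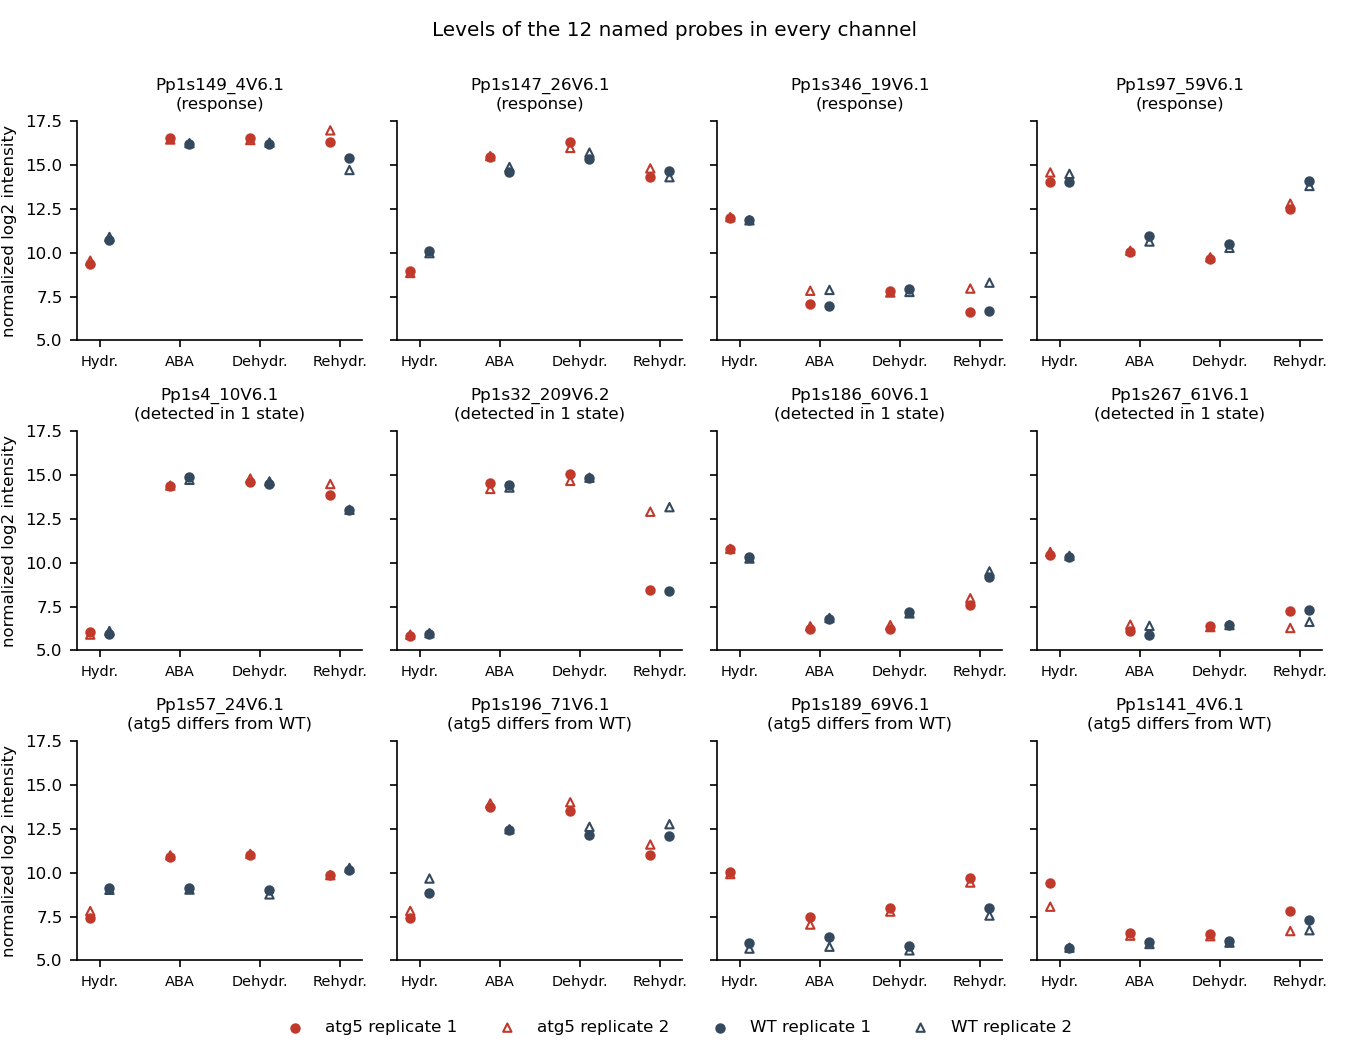
Normalized log2 intensity (vertical axis) of the 12 named probes in the states Hydration, ABA, Dehydration and Rehydration (horizontal axis), with a point for each channel, atg5 in red and WT in dark blue, circles for replicate 1 and triangles for replicate 2. In the top row both atg5 ABA points of Pp1s149_4V6.1 and Pp1s147_26V6.1 lie at least 6 log2 units above both Hydration points, and those of Pp1s346_19V6.1 and Pp1s97_59V6.1 lie below them.

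Many changes crossed the limit of detection. On all probes, 597 were not well above background on either atg5 Hydration array and well above it on both ABA arrays, and 1042 went the other way. With a fixed level of 50 intensity units above local background these counts were 738 and 1055. In WT the counts were 289 and 1334. Of the 562 newly detected probes that were tested in atg5, 399 rose, and 402 of the 1030 that dropped out of detection fell. The choice of these probes fixed their direction on the same 4 channels, so nothing is read from these counts against the 9.81% and 12.3% over all tested probes. Of those 562, 528 were also well above background on both Dehydration arrays of atg5 and 164 on both Rehydration arrays. Of all probes in atg5, 50.4 and 45.0% were well above background in Dehydration, the highest shares at each replicate, and 29.2 and 23.3% in Rehydration, the lowest. Of the 1030, 514 were well above background on both Dehydration arrays and 27 on both Rehydration arrays.

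For such probes a fold is a lower bound. The signal on the dim arrays is set to the lowest signal of any probe well above background there, unless the probe's own is higher. Pp1s4_10V6.1 read 6.07 and 5.90 in atg5 in Hydration, not well above background on either array, and 14.40 and 14.40 on ABA. It rose at least 302-fold (fitted log2 change 8.42 ± 0.235, n = 2, limma adjusted p = 1.77e-09). Pp1s32_209V6.2 read 5.84 and 5.89 in Hydration and 14.53 and 14.21 on ABA, a rise of at least 296-fold (8.51 ± 1.10, adjusted p = 0.000211). Its large error comes with a wide spread in Rehydration, where atg5 read 8.43 and 12.91. With median centring its adjusted p was 0.0517, the highest over 18 alternatives, the lowest being 1.05e-06.

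Out of detection on ABA went Pp1s186_60V6.1, from 10.79 on both Hydration arrays to 6.22 and 6.37. It fell at least 22.5-fold (-4.49 ± 0.155, adjusted p = 1.01e-08), and in Rehydration it stood at 7.58 and 7.97, well above background on both arrays. Pp1s267_61V6.1 went from 10.44 and 10.61 to 6.13 and 6.47, a fall of at least 18.2-fold (-4.23 ± 0.257, adjusted p = 6.12e-07). The other tested probe of its locus, Pp1s267_61V6.2, fell by 3.21 on the log2 scale (SE 0.181, adjusted p = 3.65e-07). All values on ABA lay below those in Hydration for both loci.

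The replicates, which share no array, slide or dye, gave like responses. Across the 19143 probes the atg5 change on replicate 1 correlated with that on replicate 2 at 0.758, a description over probes that are not independent. The median difference between them was 0.166 on the log2 scale. Of the 1361 probes at least 2-fold higher on replicate 1, 87.7% were higher on replicate 2, with a median log2 change of 1.25 there, and 857 were at least 2-fold higher there too. Of the 1363 at least 2-fold lower, 87.2% were lower on replicate 2, with a median of -1.11, and 800 passed 2-fold. Choosing on replicate 2 gave medians of 1.34 and -1.22 on replicate 1. All 1878 and 2349 changed probes had the same sign on both replicates, which the test largely fixes, and of these 812 and 754 were at least 2-fold changed on each replicate.

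**Figure D3:**
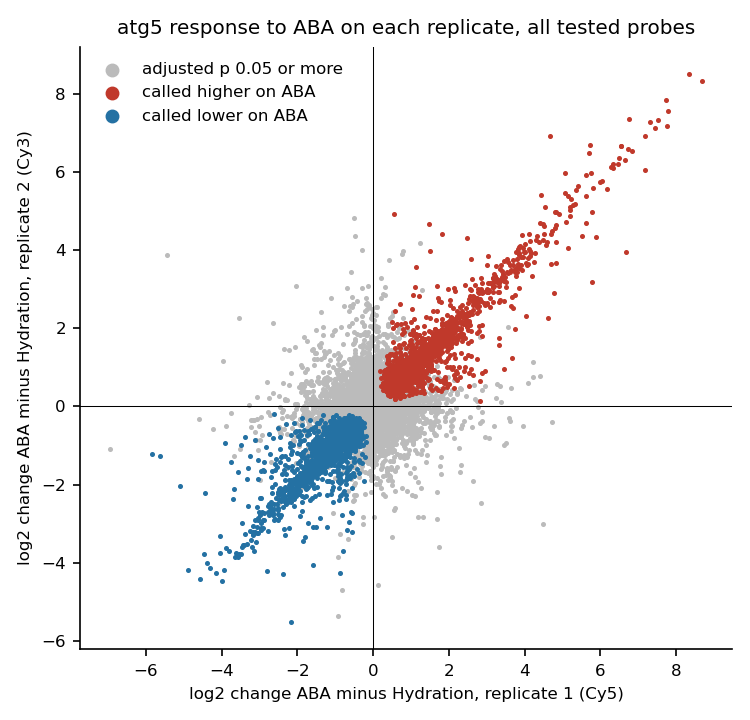
Log2 change on ABA against Hydration in atg5 on replicate 1 (horizontal axis) and replicate 2 (vertical axis), with a point for each of the 19143 tested probes, called rises in red, called falls in blue and the others in grey. The largest rises lie near the diagonal out to a log2 change of about 8.5, and the falls reach about -4.5. Grey points far off the diagonal are probes whose change differed between the replicates, some of them in opposite directions.

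Different probes of a locus mostly moved together. The 2777 loci with at least 2 tested probes gave 5908 pairs, nearly all of probes for different transcript models of the locus. Within a pair the median difference of the log2 change was 0.171. Where both probes were called, 941 of 944 pairs had the same sign. In a further 1106 pairs only 1 probe was called, and 961 of these had the same sign. Loci with a called rise and a called fall numbered 2, and they are named here after their values were seen. In Pp1s29_45, the probe Pp1s29_45V6.3 fell by 0.45 (SE 0.129, limma adjusted p = 0.0272), and Pp1s29_45V6.1 rose by 0.52 (SE 0.118, adjusted p = 0.00858). Pp1s29_45V6.3 read 6.87 and 6.84 in Hydration and 6.46 and 6.35 on ABA, where it was well above background on 1 of 2 arrays. Pp1s29_45V6.2 also rose, by 0.48 (SE 0.135, adjusted p = 0.024). In Pp1s46_116, Pp1s46_116V6.2 rose by 1.23 (SE 0.366, adjusted p = 0.033), with uneven Hydration values of 7.08 and 8.18, and Pp1s46_116V6.1 fell by 0.38 (SE 0.122, adjusted p = 0.0468).

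At most probes that changed in atg5 the test found no difference from WT, and at some the lines differed. The change on ABA was compared between the lines by the difference of their responses in the same fit. It differed at 1696 of 19143 probes (8.86%), 952 with a higher change in atg5 (4.97%) and 744 with a lower one (3.89%). Of these 269 (1.41%) differed at least 2-fold, 183 higher (0.956%) and 86 lower (0.449%). The arrays of a replicate number share a slide and a dye orientation, and the atg5 to WT ratios of same-numbered arrays deviate together (0.272 to 0.537 across probes in all 6 pairs of states). With replicate and dye as terms the count was 3268, 1828 higher and 1440 lower, and the within-array ratios, blocked by replicate number, gave 3815. It was 520 and 823 without Hydration replicate 1 and 2, and 585 and 710 without ABA replicate 1 and 2. Agilent's processed signals gave 420, with 313 higher and 107 lower. With median centring or spike-in scaling and no further terms limma called 0 probes (350 and 288 at an unadjusted p under 0.05). With replicate and dye as terms these scalings called 939 higher against 16 lower and 2188 against 1, where the median difference of all probes lay at 0.32 and 0.84 in place of 0.03. The near-even split of higher and lower changes is thus relative to the scaling used.

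Among the 1878 probes that rose in atg5 449 had a higher and 55 a lower change than WT, and the remaining 1374 did not pass the test of the difference. Of the 2349 that fell, 424 had a lower and 94 a higher change than WT. Probes chosen for a change in atg5 share their atg5 values with this difference, so these shares are a description. WT had 1259 of the 1878 rises, out of 1578 rises of its own, and 1578 of the 2349 falls, out of 2232. At 9 of the rises and 4 of the falls WT was called in the opposite direction. The fitted WT change had the opposite sign at 83 of the rises and 85 of the falls, and the difference was called at each of these. An opposite sign makes the difference larger than the called atg5 change, and its SE in this fit is smaller. Those calls thus follow from the choice and are no separate result.

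On arrays not used to choose them, probes chosen in atg5 had a larger change in atg5 than in WT. Those at least 2-fold higher on replicate 1 of atg5 had a median log2 change of 1.25 on replicate 2 in atg5 and 1.01 in WT, and those lower had -1.11 and -0.86. Probes chosen in WT did not show the reverse to the same extent. Those at least 2-fold higher on replicate 1 of WT had medians of 1.20 in WT and 1.14 in atg5 on replicate 2, and those chosen on replicate 2 had 1.27 in WT and 1.34 in atg5 on replicate 1. For falls chosen in WT the medians were -1.05 in WT and -0.89 in atg5, and -1.19 and -1.07. The SD of the change over all probes was 0.865 and 0.835 in atg5 and 0.824 and 0.762 in WT.

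Where the responses differed, the lines were mostly farther apart in Hydration than on ABA. The 952 probes with a higher change in atg5 had median levels of 7.42 and 7.42 in atg5 against 8.04 and 8.02 in WT in Hydration. On ABA they had 8.13 and 8.11 in atg5 and 7.93 and 7.93 in WT. Before ABA atg5 was the lower line at 888 of them, and its gap to WT was larger in Hydration than on ABA at 757. The choice used these same channels and favours probes with atg5 lower in Hydration or higher on ABA. The levels and the 888 are therefore a description. The 744 probes with a lower change in atg5 had the mirror pattern, with the same limit. Their median levels were 8.19 and 8.07 in atg5 against 7.35 and 7.37 in WT in Hydration, and 7.60 and 7.54 against 7.66 and 7.63 on ABA, with the larger gap in Hydration at 595. Over both directions the share with the larger gap in Hydration was 79.7%. That share was not computed over all tested probes, so it is not read as particular to these.

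The larger gap in Hydration was also seen on arrays that had no part in the choice. The 261 probes whose change was at least 2-fold higher in atg5 than in WT on replicate 1 had a median atg5 minus WT difference of -0.94 in Hydration and 0.13 on ABA on replicate 2. For the 143 at least 2-fold lower these medians were 1.07 and 0.11. Chosen on replicate 2 and measured on replicate 1, 212 higher probes had -1.13 and 0.29, and 93 lower probes had 1.19 and 0.10. The sign of the difference recurred at 95.8 to 98.5% of the probes in these 4 sets.

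**Figure D4:**
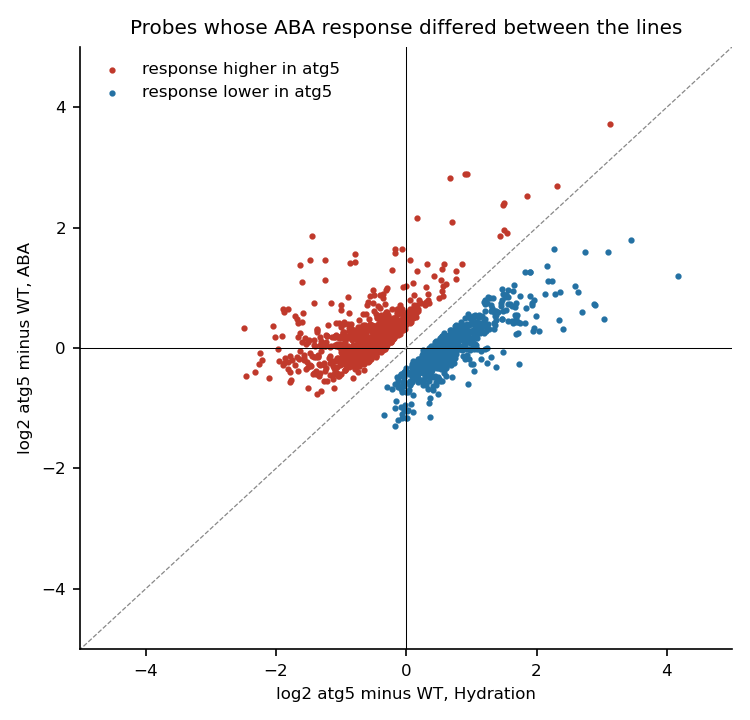
Log2 difference of atg5 minus WT in Hydration (horizontal axis) and on ABA (vertical axis) for the 1696 probes whose response differed between the lines, 952 with a higher change in atg5 in red and 744 with a lower one in blue. On the dashed line the gap is the same in both states. Most points are spread along the horizontal axis and lie near 0 on the vertical one, since the gap is larger in Hydration at 757 and 595 of them.

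The probe with the largest difference did not have the larger gap in Hydration. Pp1s57_24V6.1 read 7.42 and 7.81 in atg5 in Hydration and 10.92 and 10.99 on ABA, while WT read 9.1 and 9.03, then 9.15 and 9.04. It rose 10.1-fold in atg5 (log2 change 3.34 ± 0.189, n = 2, limma adjusted p = 3.67e-07), with a WT change of 0.03 ± 0.189 (adjusted p = 0.947). The difference of the responses was 3.31 ± 0.151 (adjusted p = 1.71e-06, 4e-07 to 0.939 over 20 alternatives). The line that was lower in Hydration, atg5, by 2.73-fold, was higher on ABA, by 3.63-fold, so the gap was larger on ABA.

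Pp1s196_71V6.1 rose in both lines. It went from 7.44 and 7.83 to 13.73 and 13.95 in atg5, and from 8.85 and 9.67 to 12.43 and 12.48 in WT. These are rises of 74.2-fold and 9.17-fold, and the difference was 3.02 ± 0.230 on the log2 scale (adjusted p = 2.9e-05, 5.67e-06 to 0.999 over the alternatives). Again atg5 lay below WT in Hydration, by 3.09-fold, and above it on ABA, by 2.62-fold.

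Pp1s189_69V6.1 was high in atg5 before the treatment, at 10.07 and 9.92 against 5.98 and 5.67 in WT, and fell to 7.47 and 7.05 on ABA. The fall of 6.69-fold (-2.74 ± 0.201, adjusted p = 2.73e-06) stood against a fitted WT change of 0.24 ± 0.201 (adjusted p = 0.476). WT was well above background on both Hydration arrays and on neither ABA array, against the sign of that fitted change. Its Hydration value of 5.67 was the lowest of any tested probe well above background in that channel. The direction of a WT change was therefore not settled. The difference of -2.98 ± 0.161 had an adjusted p of 5.06e-06 (4.09e-07 to 0.999 over the alternatives). With Agilent's processed signals it was -1.33 ± 0.530 (adjusted p = 0.304). The size of this difference rests on WT values near the limit of detection in Hydration and below it on ABA. It is thus a fitted value and not a measured one.

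Pp1s141_4V6.1 read 9.44 and 8.06 in atg5 in Hydration and 6.56 and 6.41 on ABA, where it was well above background on 1 of 2 arrays. WT read 5.70 and 5.73 in Hydration, well above background on 1 of 2 arrays, and 6.07 and 5.94 on ABA, on neither. The fall in atg5 was 4.8-fold (-2.26 ± 0.487, adjusted p = 0.00611), and the fitted difference from WT -2.55 ± 0.390 (adjusted p = 0.00254, 0.000349 to 0.999 over the alternatives). Since WT was mostly within background in both states, its own change was not measured, and the size of the difference is not a measured one either. With processed signals its adjusted p was 0.313 at -2.57 ± 1.04.

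The leading probes of the response itself were divided in this respect. Of the probes named above, Pp1s149_4V6.1 and Pp1s147_26V6.1 rose more in atg5 than in WT, by 1.63 ± 0.304 (adjusted p = 0.00759) and 1.90 ± 0.258 (adjusted p = 0.00125) on the log2 scale. Both were lower in atg5 than in WT in Hydration, by 2.57-fold and 2.22-fold. Pp1s97_59V6.1 had a lower change in atg5, by -0.73 ± 0.199 (adjusted p = 0.0446), and for Pp1s346_19V6.1 the difference was -0.10 ± 0.334 (adjusted p = 0.922). Pp1s186_60V6.1 fell further in atg5 (adjusted p = 0.000669), by a size that is not given because atg5 was not well above background on ABA. For Pp1s4_10V6.1 and Pp1s32_209V6.2, at background in both lines in Hydration, and for Pp1s267_61V6.1, at background in atg5 on ABA, the size of a difference was not measured, and the fit called none (adjusted p = 0.292, 0.975 and 0.989).

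In the other states of the atg5 line the changed probes stayed near their ABA levels after drying and lay between ABA and Hydration after rehydration. The probes that rose had median levels of 7.01 and 7.02 in Hydration, 8.40 and 8.34 on ABA, 8.36 and 8.30 in Dehydration and 7.99 and 7.99 in Rehydration. Those that fell had medians of 8.44 and 8.37 in Hydration and 7.34 and 7.32 on ABA, then 7.37 and 7.33 in Dehydration and finally 7.52 and 7.57 in Rehydration. Over all tested probes these medians lay between 7.08 and 7.14 on the atg5 arrays listed. The choice of the probes used the Hydration and ABA values, so the distance between those states is not a result here, and any change from Hydration in the other states would share those Hydration channels. The labels do not say whether the colonies had been on the hormone before drying.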

How the data were processed

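The scanner software was Agilent Feature Extraction 9.5.3.1 per the file headers, and the submitters' processing notes name version 9.1. The deposited values are spot intensities per dye. The authors' deposited table of intensities equals the processed signals in 16 of 16 columns at all 39733 spots, so it was no alternative. Median signals were corrected with limma 3.58.1 in R 4.3.3 (normexp, offset 50, local background medians), normalized by loess within arrays and Aquantile between arrays. Control spots and outlier spots were left out and spots of a probe averaged. A probe was kept (19741) if the software marked it well above background in every array of some genotype and state, out of 8 such groups, and 19143 had no missing value. lmscFit used all 16 channels (intraspot correlation 0.679, no block or dye term) and p-values were adjusted over all tested probes. SE is that of the fitted log2 difference.

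Named were the 2 largest rises and 2 largest falls for the response, the detection change and the difference from WT, the brightest probe standing for a locus. All had to be called, and those named for the response or the difference had to have the same sign on both replicates. Members and rules were chosen with earlier results of these data known. Level deviations of same-numbered atg5 arrays correlated at 0.0586 to 0.105, not over 0.1 in every pair, so no block was used for the atg5 response. For the atg5 to WT ratios these correlations were 0.272 to 0.537, over 0.1 in every pair. The difference from WT still came from the same unblocked fit, and fits with a block are given as alternatives. Gene lists were not analysed here, because the identifiers carry no names. The fits of the atg5 response and of the difference from WT were run on simulated data. The simulated noise took its spread and intraspot correlation from the fit itself, so it cannot show that the model suits these arrays. Of 100 simulated 2-fold and 100 4-fold changes, the atg5 fit called 62 and 80, and the difference fit called 74 and 92. False calls numbered 13 and 11.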

Additional observations from a re-analysis of the deposited data

Results flagged for a closer look

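The response to ABA differed between atg5 and WT at 1696 probes by the test of the difference itself in limma's separate-channel fit. The 4 named ones are Pp1s57_24V6.1 (log2 difference of the responses, atg5 minus WT, 3.31), Pp1s196_71V6.1 (3.02), Pp1s189_69V6.1 (-2.98) and Pp1s141_4V6.1 (-2.55). The same sign on 2 of 2 replicates was a condition for naming them, so it is no further support. The sizes of the last pair rest on WT values at background on ABA. Groups of 2 arrays are too small for a search for single outlying arrays.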

How the results depend on the processing

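The named responses kept their direction under each of 18 alternatives and the named differences under 20. Many of these, such as the probe filters and the block and dye terms, leave the fitted change as it is and alter only its error. Under those the direction could not move. Of the 224 tests in all, 210 stayed past the threshold. Among the named responses only Pp1s32_209V6.2 lost it, staying past it in 17 of 18. The named differences lost it more often. Pp1s57_24V6.1 and Pp1s196_71V6.1 stayed past it in 18 of 20, Pp1s189_69V6.1 in 16 and Pp1s141_4V6.1 in 15. The count of 4227 changed probes was 499 with median centring (2386 with replicate and dye as terms), 7290 without scaling between arrays, 365 with spike-in scaling (1710 with those terms) and 1916 with a 2-fold minimum. With the replicate block alone it was 4838, and in a fit of only the Hydration and ABA arrays 5705. The fits with these terms for those settings and for processed signals were chosen after seeing the data.

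The share of rises among the changed probes, 44.4%, was 47.4% with processed signals (47.3% with the terms), 66.1% with median centring (63.3%), 19.0% without scaling and 77.3% with spike-in scaling (72.2%), and 42.5 to 50.4% without 1 array.

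The 1696 differences of response became 420 with processed signals (722 with the terms), 0 with median centring (350 before adjustment at 0.05, by limma, and 955 with the terms), 471 with quantile normalization, 0 with spike-in scaling (288 before adjustment, and 2189 with the terms), 606 without a filter on dim probes, 1036 on the 4 arrays alone, 4094 with a dye term, 3268 with that and the replicate block, 3815 in the ratio fit with the replicate block, 1253 with the replicate block alone, 269 with a 2-fold minimum, and 520 to 823 without 1 array. The share of them with the larger gap in Hydration was 75.4 to 98.1% under the alternatives for which it was computed, which leave out the ratio fits. On 1 replicate alone, 1806 and 1550 probes were detected on ABA only and 2760 and 2447 in Hydration only. The cause of these shifts was not tested. A fall into background is measured only as a bound.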
